A study of Homo sapiens with 4 samples.

Results

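The aldo-keto reductases are a family of cytosolic NADPH-dependent enzymes, and 10 of their genes were followed here among the 57768 genes quantified: AKR1A1, AKR1B1, AKR1B10, AKR1B15, AKR1C1, AKR1C2, AKR1C3, AKR1C4, AKR1D1 and AKR7A2. The genes were taken by symbol. They were chosen by the measured FPKM of this same contrast, in which members of the family had been seen to be lower in the enhancer-deleted cells, so the genotype differences of the 10 genes are given as a description, with no p-value, and support no statement. RNA-seq was performed on HepG2, a cell line from a human liver cancer. The 4 libraries were 2 of wild type (WT) and 2 of the genotype C/EBPβ enh-/-, which had lost the C/EBPβ enhancer on both alleles through CRISPR/Cas9. C/EBPβ is a liver-enriched transcription factor encoded by CEBPB, and the comparison asks how expression differs in cells that lack its enhancer. The labels do not say whether the libraries came from separate cultures, or whether the enh-/- cells are 1 clone or several, so that every p-value below measures only the spread between these libraries. An effect of the deletion cannot be told apart from a difference between the cell populations that were compared. In bulk RNA, fewer cells of a type and less RNA per cell cannot be told apart either.

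Aldo-keto reductases reduce aldehydes and ketones to alcohols, and several convert steroids, prostaglandins, retinoids or sugars. The AKR1C genes lie side by side on chromosome 10 and are close copies of each other. AKR1C and AKR1B10 genes are known targets of NRF2, a transcription factor activated by oxidative and electrophilic stress, and are often raised in cancers and in drug-resistant cells. AKR1C4 and AKR1D1 act in the synthesis of bile acids and the breakdown of steroid hormones in normal liver.

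The measured level of a gene depends on which sequences can be told apart, so the stretches that carry this are shown first. AKR1C1 (ENSG00000187134, chr10:5005445-5025475, plus strand), AKR1C2 (ENSG00000151632, chr10:5029967-5060223, minus strand), AKR1C3 (ENSG00000196139, chr10:5077546-5149878, plus strand) and AKR1C4 (ENSG00000198610, chr10:5237425-5260912, plus strand) lie within 255 kb (hg19). The coding sequences of AKR1C1 and AKR1C2, taken from the GRCh37 genome with the GENCODE annotation, were 98.0% identical, with 19 differences in 969 bases and a longest identical run of 186 bases. AKR1C3 was 91.4% identical to AKR1C1 and 91.0% identical to AKR1C2. Coding bases 43 to 162 were chosen as a stretch of 120 bases with the most differences between AKR1C1 and AKR1C2. It holds 10 of the 19 positions that separate these genes, and AKR1C3 played no part in the choice. Capitals mark the positions at which the 3 sequences are not all alike.
AKR1C1: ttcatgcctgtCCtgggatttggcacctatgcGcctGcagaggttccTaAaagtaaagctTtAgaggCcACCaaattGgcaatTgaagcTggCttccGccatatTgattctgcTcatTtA
AKR1C2: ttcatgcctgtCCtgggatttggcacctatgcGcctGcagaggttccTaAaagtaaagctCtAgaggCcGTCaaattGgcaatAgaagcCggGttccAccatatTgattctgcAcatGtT
AKR1C3: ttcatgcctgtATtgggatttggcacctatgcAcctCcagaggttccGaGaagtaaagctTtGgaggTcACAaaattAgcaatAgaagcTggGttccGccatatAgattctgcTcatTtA
Over this stretch AKR1C2 differed from AKR1C1 at 10 positions and AKR1C3 differed from AKR1C1 at 13 positions.

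Of all windows of 50 bases in the canonical transcript, 47.3% of those of AKR1C2 occurred unchanged in a transcript of another gene, mostly AKR1C1. The share was 22.7% for AKR1C1 and 18.6% for AKR1C3. These shares depend on transcript length, which was 6543 bases for AKR1C1, 3215 for AKR1C2 and 1186 for AKR1C3. In number, 1472 windows of AKR1C1 and 1497 of AKR1C2 were shared. With windows of 100 bases the shares were 27.8% for AKR1C2, 12.6% for AKR1C1 and 7.82% for AKR1C3. A fragment from such a window can be divided between the genes, and the division between AKR1C1 and AKR1C2 is therefore uncertain. AKR1B10 and AKR1B15 shared 85.1% of aligned coding bases, and 17.3% of the 50-base windows of AKR1B10 occurred in another gene. AKR1A1 had no shared window of 50 bases and AKR1B1 shared 4.95% of its windows, chiefly with its pseudogenes. A long non-coding RNA on the opposite strand overlaps 1893 bases of the span of AKR1C2, introns included. Whether strand was used in counting is not given in the sources used here, so reads of the strands cannot be told apart. An annotated pseudogene, RP11-499O7.4, overlaps 2859 bases of the span of AKR1C3 on the same strand, where strand would not separate the reads.

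The regions upstream of the AKR1C genes are copies as well. The 250 bases before the canonical start are shown for the 3 expressed genes, read from the GRCh37 genome at chr10:5005357-5005606 (plus strand, AKR1C1), chr10:5046050-5046299 (minus strand, AKR1C2) and chr10:5136356-5136605 (plus strand, AKR1C3). Capitals mark a CCAAT box, which reads ATTGG on the strand shown.
AKR1C1: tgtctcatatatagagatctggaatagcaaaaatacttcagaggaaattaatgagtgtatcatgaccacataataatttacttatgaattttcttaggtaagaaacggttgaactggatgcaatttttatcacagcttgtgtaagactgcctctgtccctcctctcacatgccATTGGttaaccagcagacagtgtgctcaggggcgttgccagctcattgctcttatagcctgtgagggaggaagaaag
AKR1C2: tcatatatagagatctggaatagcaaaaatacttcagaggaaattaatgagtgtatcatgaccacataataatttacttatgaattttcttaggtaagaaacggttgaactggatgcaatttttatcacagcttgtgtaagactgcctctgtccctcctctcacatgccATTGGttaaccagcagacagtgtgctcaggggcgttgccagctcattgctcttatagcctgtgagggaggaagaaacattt
AKR1C3: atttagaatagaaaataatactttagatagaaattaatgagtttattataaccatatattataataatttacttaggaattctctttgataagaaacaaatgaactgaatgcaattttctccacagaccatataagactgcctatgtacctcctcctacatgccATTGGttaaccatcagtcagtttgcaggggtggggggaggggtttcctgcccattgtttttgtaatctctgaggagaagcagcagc
AKR1C1 and AKR1C2 were 96.5% identical over these windows, and AKR1C3 was 69.2% identical to AKR1C1. The CCAAT box began 77 bases before the start of AKR1C1, 81 before that of AKR1C2 and 86 before that of AKR1C3. CCAAT was present, on either strand, in 34.2% of 19881 promoters of the same length. The AKR1C windows were poor in G and C, with 40.8% in AKR1C1, 40% in AKR1C2 and 35.6% in AKR1C3, against a median of 63.2% over all promoters.

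Each promoter was also searched on both strands for TGACNNNGC (the core of the antioxidant response element bound by NRF2, in 11.3% of all promoters), TTGCNNCAA (a C/EBP motif, in 1.3%), TGANTCA (AP-1, in 4.69%) and TATAAA (a core promoter element, in 9.26%). The antioxidant and AP-1 motifs begin alike, so that a stretch can match both. None of the first 3 motifs was found in the windows of AKR1C1, AKR1C2, AKR1C3 or AKR1C4, which says only that these letters are not within the 250 bases before the canonical transcript start. Other annotated starts were not searched, and the gene spans given above reach beyond the canonical start of each of these 4 genes. AKR7A2 held 3 matches to the antioxidant core, between 169 and 89 bases before its start. AKR1B10 and AKR1B15 each held an AP-1 match. AKR1C4 held TATAAA 29 bases before its start, and the windows of AKR1C1, AKR1C2 and AKR1C3 did not hold it.

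The deposited values are FPKM, fragments scaled to transcript length and to the number of mapped fragments, and can be compared between genes. Their total ranged from 484073 to 614111 per library, and the 5 highest genes held 18.8% to 35.1% of it. Read depth could be judged only from the spacing of low FPKM values. By this approximate measure C/EBPβ enh-/- replicate 1 had 0.552 times the depth of WT replicate 1 and the other libraries had 1.12 and 1.23 times. CEBPB, the gene whose enhancer was deleted, was at 30.6 and 19.2 FPKM in WT and at 12.4 and 11.8 in C/EBPβ enh-/- libraries, with no overlap (log2 fold change -0.94, SE 0.27, limma adjusted p = 0.125, so it did not pass the threshold of 0.05). Fold changes are on the log2(FPKM + 1) scale, on which changes of weakly expressed genes appear too small. The label of a liver cell line was not matched by hepatocyte markers: all 19 hepatocyte markers found were under 1 FPKM in all 4 libraries, their summed level was 0.595 to 0.989 FPKM, and ALB, which encodes albumin, did not exceed 0.0553. The keratin genes KRT8 and KRT18 made up nearly all of the epithelial marker sum of 648 and 797 FPKM in WT and 238 in each C/EBPβ enh-/- library. EPCAM and CDH1 were near 0 in all libraries, and KRT8 and KRT18 were called lower (limma adjusted p = 0.0325 and 0.0243). The 6 mesenchymal markers summed to 285 and 357 FPKM in WT and to 247 and 211 in C/EBPβ enh-/-, mostly VIM, while COL3A1 had the opposite order, at 33.3 and 31.9 FPKM in WT and 45.8 and 55.7 in C/EBPβ enh-/-. The 2 endothelial and 4 leukocyte markers were under 1 FPKM throughout. The part of cell identity in the results below was not tested.

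AKR1C1, AKR1C2 and AKR1C3 were far lower in C/EBPβ enh-/- libraries, AKR1B1 was lower to a smaller extent, and AKR1A1 and AKR7A2 differed little. The other 4 genes were at or near 0. Of the 10 genes, 6 had a mean of at least 1 FPKM and entered the fit over 12491 genes, and 4 did not. All 6 had both C/EBPβ enh-/- values below both WT values, a pattern seen in 37.5% of all tested genes, and 3 of the 6 were called lower by limma at an adjusted p under 0.05, as were 1.21% of all tested genes. None was called higher, against 0.248% of all genes, and 1.46% of all genes were called in either direction. None had both C/EBPβ enh-/- values above both WT values, against 15.1% of all genes. Over all genes 151 were called lower and 31 higher, and 68 and 31 after centring on the median. The same contrast chose the 10 genes, so how many of them were called is not evidence of a difference, and the shares of all genes are printed as background only. The median log2 fold change of the 6 genes was -2.44 and that of all tested genes was -0.14.

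**Figure D1:**
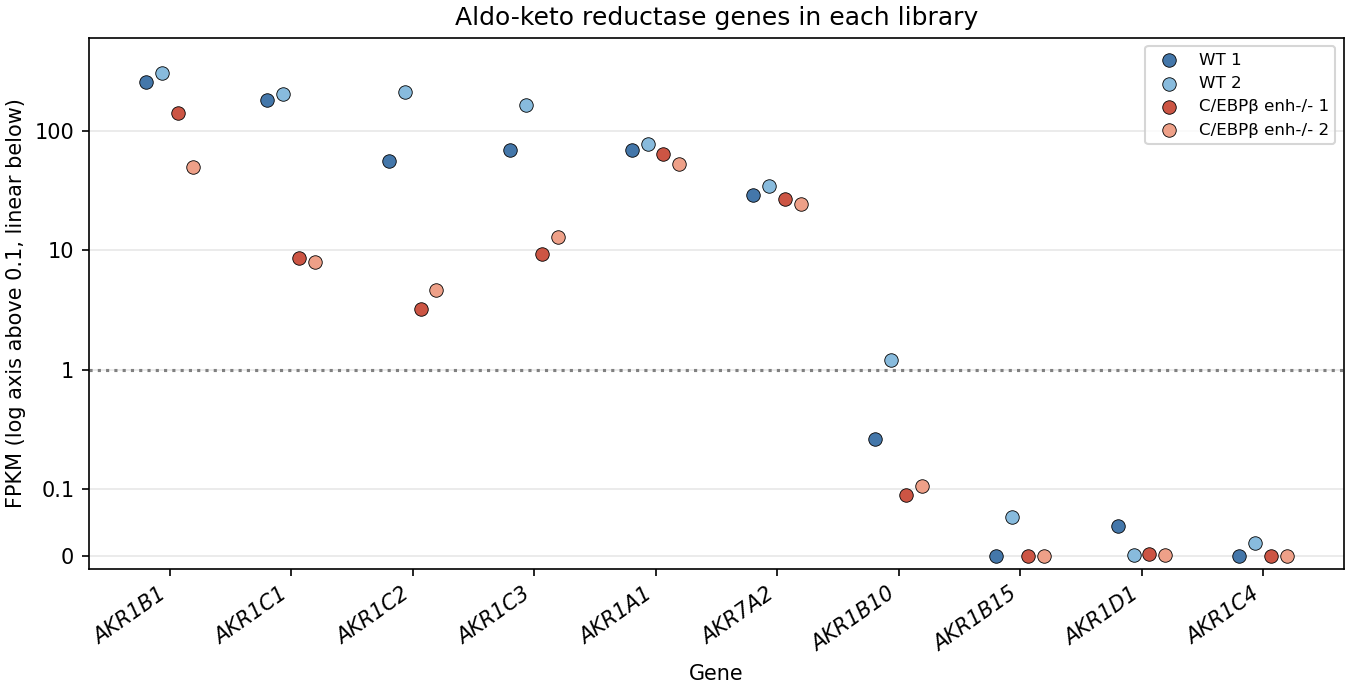
FPKM of the 10 aldo-keto reductase genes in each of the 4 libraries, 1 point per library, on an axis that is logarithmic above 0.1 and linear below, with a dotted line at 1 FPKM. AKR1C1, AKR1C2 and AKR1C3 sit at 56.2 FPKM or more in WT and at 13.03 or less in C/EBPβ enh-/- libraries, while AKR1A1 and AKR7A2 lie close together in all 4.

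AKR1C1 encodes 20α-hydroxysteroid dehydrogenase, which inactivates progesterone. It was at 181 and 202 FPKM in WT and at 8.64 and 8.01 in C/EBPβ enh-/- libraries. The group means were 191 ± 15.0 and 8.33 ± 0.445 (SD, n = 2 each), a 23.0-fold difference. Replicates were close and the groups far apart. The log2 fold change was -4.37 (SE 0.21), the fifth lowest of the 12491 genes, and the 4 pairings of a C/EBPβ enh-/- with a WT library gave -4.49 to -4.24. In rank by level, AKR1C1 moved from 350 and 330 in the WT libraries to 6363 and 6346 in the C/EBPβ enh-/- libraries, counted from the highest.

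AKR1C2 encodes 3α-hydroxysteroid dehydrogenase type 3, which inactivates dihydrotestosterone and binds bile acids. Its values were 56.2 and 212 FPKM in WT and 3.22 and 4.64 in C/EBPβ enh-/-. WT replicate 2 was 3.78 times WT replicate 1, the widest replicate gap among the 6 genes, yet the lower WT value was still above both C/EBPβ enh-/- values. The means were 134 ± 110 and 3.93 ± 1.01 FPKM (SD, n = 2 each). The log2 fold change was -4.50 (SE 0.57), with pairings from -5.66 to -3.34.

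AKR1C3, also named 17β-hydroxysteroid dehydrogenase type 5 and prostaglandin F synthase, makes testosterone from androstenedione. It was at 69.1 and 164 FPKM in WT and at 9.38 and 13.03 in C/EBPβ enh-/-. As for AKR1C2, WT replicate 2 was the higher of the WT pair, by 2.37 times, and the groups did not overlap. The means were 116 ± 66.8 and 11.2 ± 2.58 FPKM (SD, n = 2 each). The log2 fold change was -3.15 (SE 0.41), smaller than that of AKR1C1 or AKR1C2, with pairings from -3.99 to -2.32. In C/EBPβ enh-/- libraries AKR1C3 was the highest of the 3 genes, whereas in WT it was the lowest by mean.

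Because fragments can be divided between AKR1C1 and AKR1C2, their sum was also taken. FPKM are scaled to transcript length, and the canonical transcripts hold 6543 and 3215 bases. The sum can therefore still depend on the division. It was 237 and 415 FPKM in WT and 11.9 and 12.7 in C/EBPβ enh-/-. The sum was 26.6-fold higher in WT by its means (326 ± 125 against 12.3 ± 0.563, SD, n = 2 each), a difference of -4.57 in log2(FPKM + 1). The WT libraries differed by 1.75 times in this sum, which lies between 1.12 times for AKR1C1 and 3.78 times for AKR1C2. AKR1C2 made up 23.7% and 51.2% of the sum in WT and 27.1% and 36.7% in C/EBPβ enh-/- libraries. These shares overlapped between genotypes, so no difference in the balance of both genes was seen beyond the spread of replicates. With AKR1C3 added, the sum was 306 and 578 FPKM in WT and 21.2 and 25.7 in C/EBPβ enh-/-.

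AKR1C4 encodes the liver form of 3α-hydroxysteroid dehydrogenase. It was listed at 0 FPKM in 3 libraries and at 0.0200 in WT replicate 2. AKR1D1 encodes 5β-reductase, which acts just before it in bile acid and steroid hormone metabolism. AKR1D1 was at 0.0443 and 0.00126 FPKM in WT and at 0.00291 and 0.00131 in C/EBPβ enh-/-, and the groups overlapped. Both liver enzymes were thus close to undetected in either genotype, as were the hepatocyte markers.

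AKR1B1 encodes aldose reductase, which turns glucose into sorbitol. It was the highest gene of the family in WT, at 258 and 302 FPKM, and was at 140 and 49.4 FPKM in the C/EBPβ enh-/- libraries. The groups did not overlap, but here the C/EBPβ enh-/- libraries were the ones that lay apart, with replicate 1 at 2.84 times replicate 2. The means were 280 ± 31.0 and 94.96 ± 64.4 FPKM (SD, n = 2 each). The log2 fold change was -1.73 (SE 0.45), and the pairings ranged from -2.58 to -0.87. Without C/EBPβ enh-/- replicate 2 the log2 fold change of AKR1B1 was -0.98, and without C/EBPβ enh-/- replicate 1 it was -2.47. AKR1B1 (ENSG00000085662) lies at chr7:134127108-134144036 on the minus strand.

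AKR1B10, a reductase of retinal and other carbonyls that is often raised in liver cancer, lies next to AKR1B1 at chr7:134212319-134226164. It was at 0.266 and 1.21 FPKM in WT and at 0.0916 and 0.107 in C/EBPβ enh-/-. Both C/EBPβ enh-/- values were below both WT values, but 3 of the 4 values were under 1 FPKM and the gene did not pass the filter. AKR1B15, its close copy at chr7:134233862-134264627, was listed at 0 in 3 libraries and at 0.0583 FPKM in WT replicate 2. Of the AKR1B genes, AKR1B1 alone was expressed at an appreciable level in these libraries.

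AKR1A1 encodes aldehyde reductase, which serves in ascorbate-related and glucuronate metabolism and in the breakdown of S-nitrosylated coenzyme A. It lies at chr1:46016215-46035721. Its values were 69.2 and 77.6 FPKM in WT and 64.4 and 52.7 in C/EBPβ enh-/-. The groups did not overlap, but the gap between the lower WT and the higher C/EBPβ enh-/- library was smaller than the gap within either group. The log2 fold change was -0.33 (SE 0.22), or -0.19 relative to the median of all genes, and the pairings ranged from -0.55 to -0.10.

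AKR7A2, aflatoxin aldehyde reductase, also makes γ-hydroxybutyrate from succinic semialdehyde. The gene lies at chr1:19630459-19638638. It was at 28.8 and 34.7 FPKM in WT and at 26.9 and 24.6 in C/EBPβ enh-/-. The log2 fold change was -0.29 (SE 0.22), or -0.15 relative to the median of all genes, with pairings from -0.48 to -0.10. The groups did not overlap, and again the nearest libraries of the 2 genotypes lay closer together than the replicates of either.

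In WT cells the order of mean levels was AKR1B1, AKR1C1, AKR1C2, AKR1C3, AKR1A1 and AKR7A2. The ranges of AKR1C1 and AKR1C2 overlapped, as did those of AKR1C2 and AKR1C3, and those of AKR1C3 and AKR1A1, so these neighbours did not differ beyond their spread. In C/EBPβ enh-/- cells the order was AKR1B1, AKR1A1, AKR7A2, AKR1C3, AKR1C1 and AKR1C2, with overlap only between AKR1B1 and AKR1A1. The 10 genes together came to 662 and 993 FPKM in WT and to 253 and 153 in C/EBPβ enh-/-, a 4.08-fold difference of the means. AKR1C1, AKR1C2 and AKR1C3 held 46.2% and 58.2% of this sum in WT and 8.39% and 16.8% in C/EBPβ enh-/-. The family in the deleted cells was thus made up mostly of AKR1B1, AKR1A1 and AKR7A2, which held 91.6% and 83.1%.

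**Figure D2:**
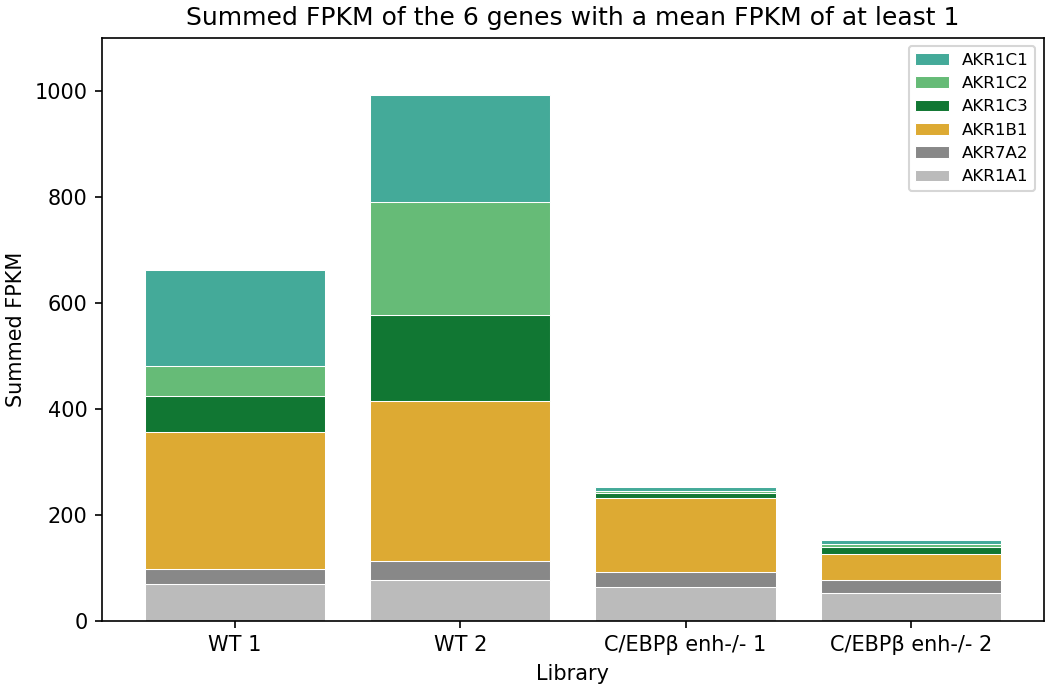
Stacked FPKM of the 6 aldo-keto reductase genes with a mean of at least 1 FPKM, 1 bar per library. AKR1C1, AKR1C2 and AKR1C3 fill 46.2% and 58.2% of the family total in WT and 8.39% and 16.8% in C/EBPβ enh-/- libraries, while the AKR1A1 and AKR7A2 segments stay similar in height.

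All tested neighbours of the AKR1C cluster had lower values in C/EBPβ enh-/- libraries, although 1 passed the test, and neighbours of the AKR1B cluster had fold changes on both sides of 0. Within 1 Mb of the AKR1C cluster, 11 other genes were tested, and all 11 had both C/EBPβ enh-/- values below both WT values (background 37.5%). Their median log2 fold change was -0.92, with a range of -2.00 to -0.67. With no filter on low values 25 neighbours were tested and their median was -0.03. Each of the 11 was lower at an unadjusted p under 0.05, as were 16.9% of all tested genes, but only IL15RA, the interleukin-15 receptor α chain, passed limma's adjusted threshold, as did 1.21% of all genes in this direction. IL15RA was at 5.70 and 6.01 FPKM in WT and at 1.28 and 0.965 in C/EBPβ enh-/- (log2 fold change -1.69, SE 0.24, limma adjusted p = 0.0295). The call of IL15RA was lost when any 1 of the 4 libraries was left out (limma adjusted p of 0.0978 to 0.229), and the alternatives as a whole gave 0.0168 to 0.242. AKR1C1, AKR1C2 and AKR1C3 had lower log2 fold changes than any of these 11 neighbours. The same contrast chose the family members, so this order is a description only and supports no statement.

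The lower values reached well beyond the cluster. In bins of 5 Mb, chosen after the values were seen, the median log2 fold change of the tested genes of chromosome 10 other than the AKR1C genes lay between -0.88 and -0.45 in each bin up to 40 Mb, and was 0.27 from 40 to 45 Mb. In the bin from 5 to 10 Mb, which holds the AKR1C genes, 14 of 14 other genes had no overlap and were lower in C/EBPβ enh-/-. For the rest of the chromosome past 10 Mb, which includes the low bins up to 40 Mb, the median of 432 genes was -0.31. The pattern was not particular to this chromosome: on chromosome 7 the medians lay between -0.89 and -0.45 in each bin up to 30 Mb, far from the AKR1B cluster, and the bin from 130 to 135 Mb that holds the AKR1B genes had a median of -0.05. What underlies these stretches was not tested, nor was its part in the AKR1C values. Around the AKR1B cluster on chromosome 7, 11 genes were tested, 0 passed limma's adjusted threshold and 0 had an unadjusted p under 0.05 (1.46% of all genes called, 16.9% lower and 3.86% higher without adjustment). Their median log2 fold change was 0.0049, with a range of -0.46 to 0.43. The closest to AKR1B1 in level, CALD1 (caldesmon), was at 164 and 280 FPKM in WT and at 127 and 190 in C/EBPβ enh-/-, with overlapping groups. EXOC4, a subunit of the exocyst, was at 44.03 and 35.3 FPKM against 26.6 and 38.3.

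**Figure D3:**
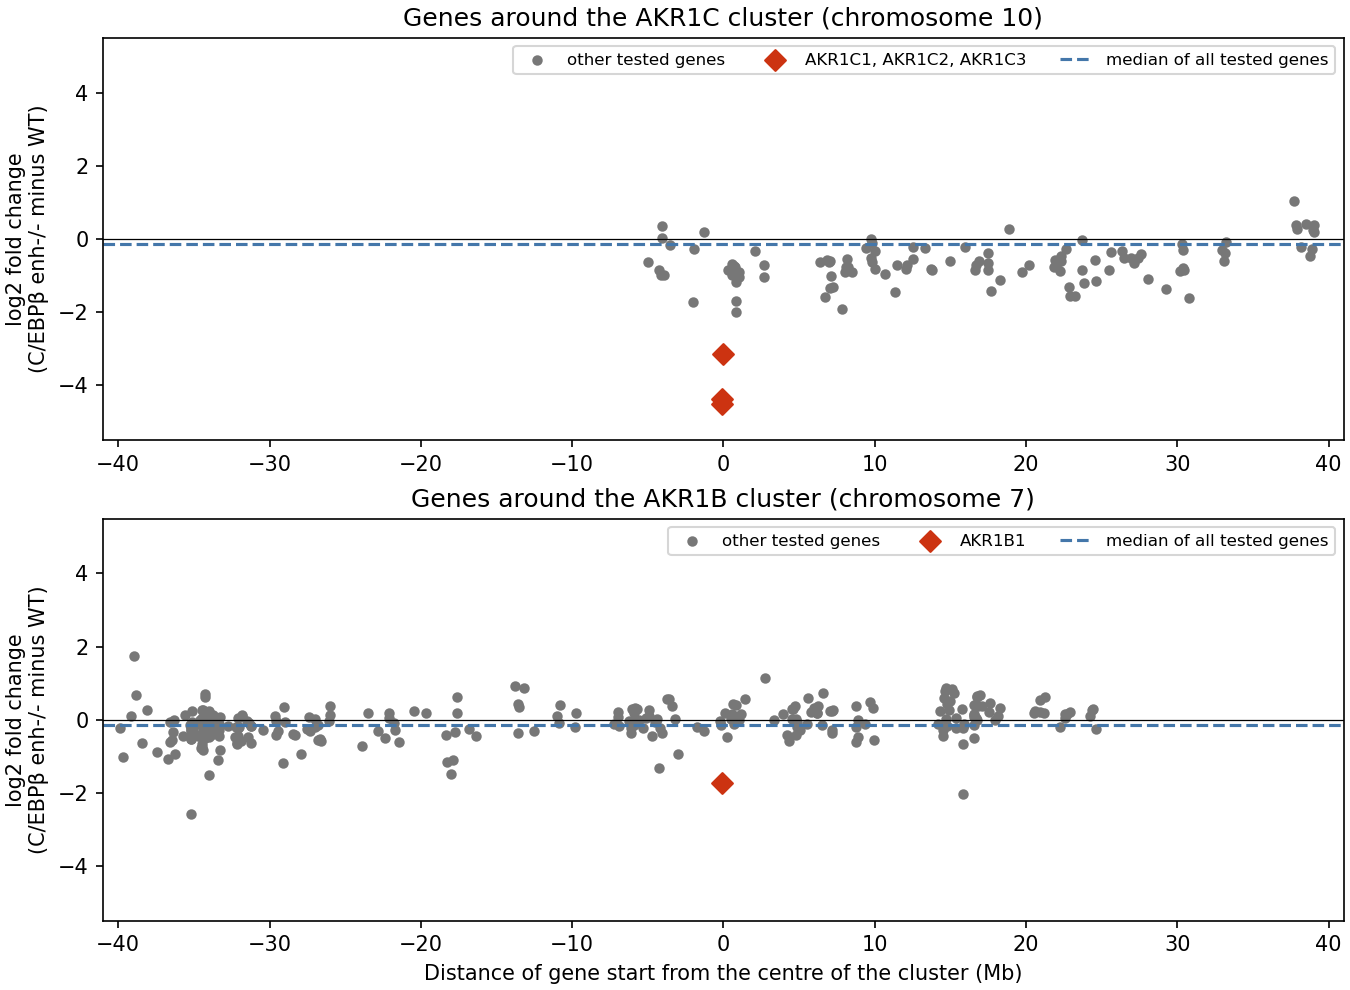
Log2 fold change (C/EBPβ enh-/- minus WT) of tested genes within 40 Mb of the AKR1C cluster (top) and the AKR1B cluster (bottom), against the distance of the gene start from the centre of the cluster in Mb. Red diamonds are family members, grey points other genes, and the dashed line is the median of all tested genes (-0.14). The 11 neighbours within 1 Mb lie between -2.00 and -0.67 at the AKR1C cluster and between -0.46 and 0.43 at the AKR1B cluster.

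Among known NRF2 targets outside the family, 19 of 23 tested genes had a log2 fold change below 0, as did 62.6% of all tested genes. Of 24 listed genes 23 were tested, 1 passed as lower and 0 as higher in limma, against 1.21% and 0.248% of all genes. Without adjustment, 10 were lower and 0 higher at p under 0.05, against 16.9% and 3.86% of all tested genes, and the median log2 fold change was -0.62 beside -0.14 for all genes. The gene that passed was ABCC3, which encodes the conjugate export pump MRP3. ABCC3 was at 4.45 and 8.09 FPKM in WT and at 0.471 and 0.788 in C/EBPβ enh-/- (log2 fold change -2.12, SE 0.32, limma adjusted p = 0.0334). The call of ABCC3 was lost without any 1 of the 4 libraries (limma adjusted p of 0.107 to 0.220), and with values rescaled or centred, with a range of 0.0176 to 0.275 over all alternatives. Other genes, named after their values were seen, did not pass. TXNRD1, thioredoxin reductase, was at 210 and 324 FPKM in WT and at 83.7 and 132 in C/EBPβ enh-/- (log2 fold change -1.30, limma adjusted p = 0.0912). The ferritin light chain FTL was at 1898 and 4145 FPKM in WT and at 2063 and 1889 in C/EBPβ enh-/-, and TXN was at 114 and 199 against 192 and 164, so both overlapped between the groups.

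Of 8 regulators of NRF2 tested, limma called 0, and 0 had an unadjusted p under 0.05. Over all genes 1.46% were called, and 16.9% were lower and 3.86% higher without adjustment, so that 0 of 8 says little. NFE2L2, which encodes NRF2 itself, was at 19.3 and 14.9 FPKM in WT and at 12.1 and 13.4 in C/EBPβ enh-/- (log2 fold change -0.39, limma adjusted p = 0.380). KEAP1, the sensor that holds NRF2 in check, was at 14.1 and 19.3 FPKM against 19.4 and 14.6 (log2 fold change 0.02, limma adjusted p = 0.972). Of the remaining list members, SQSTM1 had the highest level (199 and 407 FPKM in WT, 332 and 213 in C/EBPβ enh-/-), and BACH1, a repressor at NRF2 sites, was at 25.5 and 20.5 against 30.02 and 24.5.

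Other enzymes that act on aldehydes and ketones gave no call, which does not show that they were alike in both genotypes. Of 23 listed 19 were tested, limma called 0, and 7 were lower and 0 higher at an unadjusted p under 0.05, against 16.9% and 3.86% of all genes. Their median log2 fold change was -0.74, but -0.42 without C/EBPβ enh-/- replicate 1 and -0.37 with no filter on low values. CBR1, carbonyl reductase, was at 75.6 and 87.1 FPKM in WT and at 52.4 and 44.2 in C/EBPβ enh-/- (log2 fold change -0.74, limma adjusted p = 0.133). ADH5, which handles formaldehyde bound to glutathione, was at 67.1 and 66.2 FPKM against 68.1 and 59.6 (log2 fold change -0.06, limma adjusted p = 0.891). Among genes named after their values were seen, ALDH2 was at 7.99 and 4.15 FPKM against 0.595 and 1.68 (log2 fold change -1.72, limma adjusted p = 0.0794).

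Pathways in which the family's substrates are made or used had medians close to that of all genes and gave no call. For steroid, retinoid and prostaglandin conversion, 38 of 39 listed genes were found and 20 tested, limma called 0, and 1 was lower and 3 higher at an unadjusted p under 0.05, against 16.9% and 3.86% of all genes. The median log2 fold change of these 20 genes was -0.12, but -0.36 without C/EBPβ enh-/- replicate 1, where that of all genes was -0.19. HSD17B10 was at 96.2 and 105 FPKM in WT and at 106 and 90.1 in C/EBPβ enh-/-, and RDH10, which makes retinal, was at 131 and 252 against 78.8 and 136. HSD17B2, named after its values were seen, inactivates testosterone and estradiol, the reverse of the step that AKR1C3 catalyses. It was at 0.0364 and 0.178 FPKM in WT and at 5.54 and 2.31 in C/EBPβ enh-/- (log2 fold change 2.07, SE 0.38, limma adjusted p = 0.0566), an opposite order to AKR1C3 that did not pass. Of 13 bile acid genes 6 were tested, limma called 0, and 2 were lower and 1 higher without adjustment (16.9% and 3.86% of all genes), with a median of -0.15. HSD17B4 was at 51.8 and 55.7 FPKM in WT and at 43.6 and 54.9 in C/EBPβ enh-/-, and SCP2 at 28.3 and 29.5 against 25.2 and 26.3. CYP7A1, likewise named after its values were seen, encodes the rate-limiting enzyme of bile acid synthesis. It was not tested and did not exceed 0.03 FPKM. Of 8 genes of the polyol and glucuronate pathways, which flank AKR1B1 and AKR1A1, 6 were tested, limma called 0 and 0 had an unadjusted p under 0.05 (1.46% of all genes called, 16.9% lower and 3.86% higher without adjustment), with a median of -0.13. SORD, named after its values were seen, turns the sorbitol made by aldose reductase into fructose. It was at 15.0 and 14.4 FPKM in WT and at 12.6 and 16.7 in C/EBPβ enh-/-. DCXR was at 47.8 and 44.7 against 35.1 and 47.3, and UGP2 at 27.4 and 26.1 against 34.2 and 19.0. Among 6 further genes of the aldo-keto reductase superfamily, only KCNAB2, a potassium channel β subunit, was tested. KCNAB2 was at 10.1 and 12.8 FPKM in WT and at 7.20 and 5.24 in C/EBPβ enh-/- (log2 fold change -0.79, limma adjusted p = 0.148, unadjusted p = 0.0159).

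**Figure D4:**
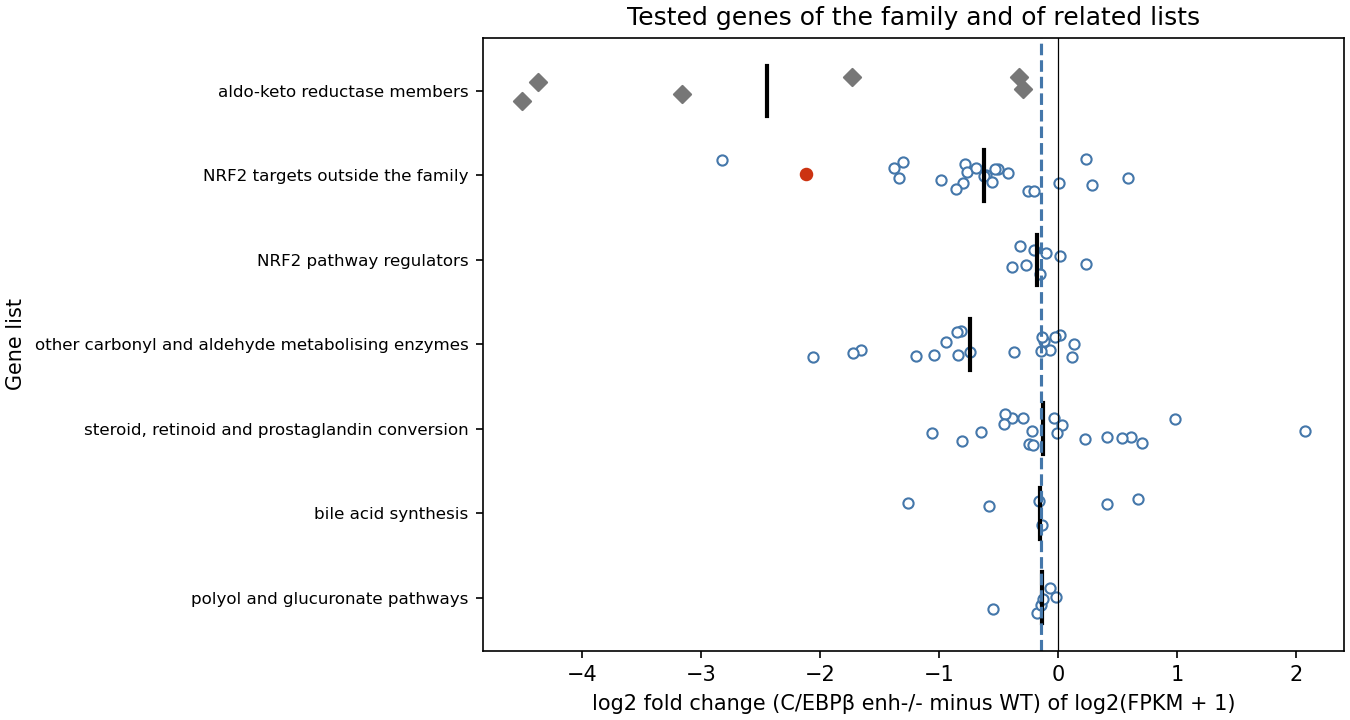
Log2 fold change (C/EBPβ enh-/- minus WT, of log2(FPKM + 1)) of each tested gene of the family (grey diamonds, no test) and of 6 related lists, where red points passed limma's adjusted threshold and open points did not. Black bars are list medians and the dashed line is the median of all tested genes (-0.14). The median of the family lies at -2.44 and those of the lists between -0.74 and -0.12.

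The genes whose 4 values lay nearest to the summed AKR1C1 and AKR1C2, by Euclidean distance of centred log2 values among 8359 candidates, were TNNC1, SLFN11, SLC12A3, ELF3 and MAGEA1. They were selected for this likeness over only 4 libraries, so their difference was not tested. TNNC1, which encodes cardiac troponin C, was nearest, at a distance of 0.621. TNNC1 was at 93.7 and 139 FPKM in WT and at 4.37 and 7.30 in C/EBPβ enh-/-. SLFN11, a factor that sensitizes cells to DNA damage, was at 12.5 and 18.3 FPKM against 0.177 and 0.0394 (distance 0.754). SLC12A3, the sodium-chloride cotransporter of the kidney, was at 45.7 and 37.5 against 0.160 and 0.688 (distance 0.901). ELF3, an epithelial transcription factor, was at 12.9 and 19.3 against 0.357 and 0.481 (distance 1.02). MAGEA1, a cancer-testis antigen, was at 22.8 and 34.03 against 1.25 and 1.68 (distance 1.03). None of the 5 lies on chromosome 10, where the AKR1C genes are, which says little. Of the 12491 tested genes, that chromosome held only 24 outside the family before 10 Mb and 432 after.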

How the data were processed

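RNA-seq of 4 HepG2 libraries, 2 WT and 2 C/EBPβ enh-/-, was analysed, with groups taken from the labels. The authors deposited FPKM per gene in a file for each library. The submitters' processing notes name TopHat2 2.0.13, Cufflinks, edgeR and the hg19 build, with no role or order. How FPKM were scaled between libraries and how multiply mapped fragments were divided is not given in the sources used here. Each file held 57815 entries, of which 57768 were kept after copies in pseudoautosomal regions were left out, and 55535 had a symbol. Without counts no interval for depth was computed.

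Genes with a mean of at least 1 FPKM over all libraries (12491) were fitted as log2(FPKM + 1) with limma 3.58.1 (trended empirical Bayes, R 4.3.3) and adjusted by the Benjamini-Hochberg method over all of them, with a threshold of 0.05. The script was tested on simulated data. Members and lists were chosen with earlier results of these data known. Named were the 10 genes, CEBPB, NFE2L2, KEAP1, list members past the threshold (in lists with none, the 2 with the highest mean level) and the 5 nearest genes in pattern. Alternatives were another pseudocount, filters, scalings, no trend, a replicate block and leaving out each library. Sequences came from the GRCh37 genome with GENCODE annotation, aligned with Biopython 1.88 in Python 3.11.15.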

Additional observations from a re-analysis of the deposited data

How the results depend on the processing

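Each family log2 fold change of the 6 tested genes kept its direction under all alternatives. The same contrast chose these genes, so the count of members called lower is given for completeness and supports nothing: it was 3, 0 with no filter on low values, and 1 to 3 with a library left out, where a lone library is assumed to vary like the others (1 without WT replicate 2 or either C/EBPβ enh-/- replicate). Over all genes, calls moved from 151 lower and 31 higher to 0 and 0 with no filter. Lower calls were 61 (with 23 higher) after rescaling to the same total, 68 (with 31 higher) after centring on the median, 324 among genes above 0 in all libraries, and 9 to 22 with a library left out. Higher calls were 20 at a mean of at least 5 FPKM, 47 among genes above 0 in all libraries, and 3 to 20 with a library left out. The cause was not tested. Calls among NRF2 targets were 0 with no filter, rescaled, centred or with any library left out, and 3 among genes above 0. Those near the AKR1C cluster were 0 with no filter or any library left out, and 3 among genes above 0. Carbonyl enzymes gave 2 calls and steroid genes 1 among genes above 0.

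The replicate numbers did not pair the libraries: with 2 per group, the deviations of same-numbered libraries correlated at 0.0094. With the replicate block, alone and centred, lower calls were 93 and 86, NRF2 target calls 2 and 2, and calls near the AKR1C cluster 0 and 0 (IL15RA, limma adjusted p = 0.0506 and 0.0574, within a range of 0.0168 to 0.242 over all its alternatives).

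Values near 0 changed sign. Centring, with or without the block, moved the median of all genes from -0.14 to 0.034, that of NRF2 regulators to 0.0015, of steroid, retinoid and prostaglandin genes to 0.051, of bile acid genes to 0.027 and of polyol genes to 0.042, and the log2 fold changes of SQSTM1 to 0.078, ADH5 to 0.11, HSD17B10 to 0.14, HSD17B4 to 0.042, SCP2 to 0.012 and UGP2 to 0.11. The steroid median was 0.037 without C/EBPβ enh-/- replicate 2 and -0.36 without C/EBPβ enh-/- replicate 1, and the median near the AKR1B cluster, 0.0049, lay on either side of 0 under several settings. With no filter the median of the other superfamily genes was 0.0040. With a library left out, ranges were -0.29 to 0.17 for the NRF2 regulator median, -0.61 to 0.42 for SQSTM1, -0.16 to 0.030 for ADH5, -0.15 to 0.081 for HSD17B10, -0.30 to 0.031 for HSD17B4, -0.39 to 0.035 for DCXR, -0.47 to 0.35 for UGP2 and -0.19 to 0.23 for KEAP1.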
